A study of Bos taurus with 96 samples.

Results

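The 9 genes described here, PNPLA2, LIPE, MGLL, G0S2, ABHD5, PLIN1, PLIN2, CIDEC and AQP7, encode the lipases of stored fat, the proteins that hold these lipases back or switch them on, the coat of the lipid droplet and the channel through which glycerol leaves the adipocyte. They were fixed by name and found on the array through the bovine RefSeq accession of a probe or through the probe tables of the paper, and they are 9 of the 10658 genes that could be named there. Between them they have 15 probes, of which 13 were among the probes tested. The brightest probe over all 96 arrays stands for each gene, and MGLL is named by the paper's tables alone.

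Fat is stored in adipocytes as triacylglycerol inside a lipid droplet, and lipolysis releases it stepwise. PNPLA2, the adipose triglyceride lipase, takes off the first fatty acid, LIPE, the hormone-sensitive lipase, the next, and MGLL, the monoglyceride lipase, the last. ABHD5 activates PNPLA2 and G0S2 inhibits it, while the coat protein PLIN1 keeps ABHD5 bound in the resting cell and lets it go when catecholamines raise cyclic AMP. CIDEC enlarges droplets at their contact sites, PLIN2 coats droplets in most cell types, and AQP7 lets the freed glycerol out.

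Total RNA was hybridised to a one colour Agilent bovine array, 1 sample to an array and 4 arrays to a slide. The fat depots were intramuscular fat dissected from the longissimus dorsi (IMF), intermuscular fat (Inter), kidney fat (Kid), omental fat (Omen) and subcutaneous fat over the rump (SC), with 12 arrays each, 4 from Angus, 4 from Hereford and 4 from Wagyu x Angus steers. All 60 fat arrays came from steers fed pasture only after weaning. The longissimus dorsi muscle with its fat in place (LD) gave 24 arrays from pasture animals, 8 of each breed, and 12 arrays from animals that had received a supplement after weaning, 4 of each breed. Per the series description the steers were 26 months old after 259 days in a feedlot, and the labels carry 259 days for every sample, whereas the study's methods take part of the LD samples, on both diets, from an earlier kill that the labels do not mark. The methods also draw the fat samples from 15 steers, so that arrays of different depots share animals which the labels do not identify, and the tests treat them as independent.

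Expression is given on the log2 scale relative to the 75th percentile of each array, so that 0 is the level of that percentile, and levels are compared between samples for a probe but not between probes. All 9 probes were well above background on all 96 arrays, and no spot was saturated. The median share of probes well above background was 82.7% in IMF and 76.9% in SC, and the median 75th percentile was 9.82 and 9.05 on the log2 scale. All 12 IMF arrays were scanned on 1 of the 3 scan days and 11 of the 12 SC arrays on another. A fat sample is bulk tissue, so fewer adipocytes and less RNA per adipocyte cannot be told apart. As a check of the labels, the mean log2 level of 8 adipocyte marker genes had a median of 3.42 in IMF, 4.67 to 4.94 in the other depots and -0.09 in LD pasture, while IMF also carried skeletal myofibre markers, with values given beside the depot comparison.

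All 9 genes were lower in IMF than in SC. The differences ran from -2.32 for G0S2 to -0.63 for ABHD5, with a median of -1.43 against 0.00 over all probes, and all 9 passed the threshold by limma (adjusted p from 2.07e-09 to 9.73e-05, n = 12 arrays per depot). Of all 34227 probes tested, 33.0% were lower in IMF and past the threshold. For 5 of the 9 genes, PNPLA2, G0S2, PLIN2, CIDEC and AQP7, the highest of the 12 IMF arrays was under the lowest of the 12 SC arrays, as it was for 8.26% of all probes.

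**Figure D1:**
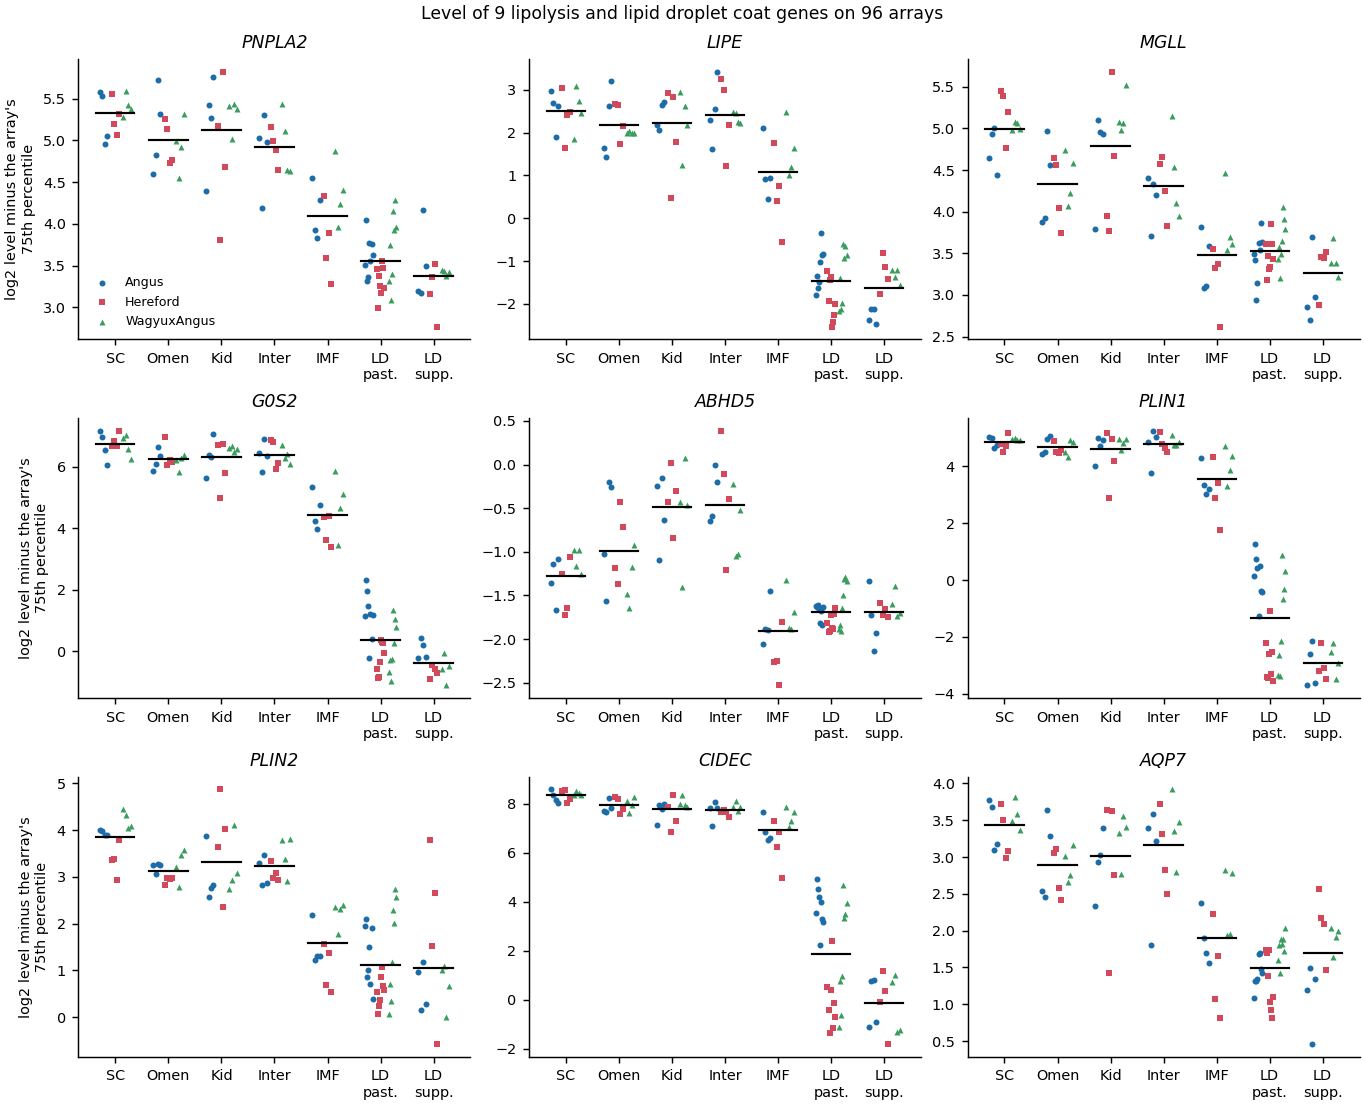
Levels of the 9 genes on all 96 arrays, on the log2 scale relative to each array's 75th percentile, by tissue and, for muscle, by diet. Points are arrays, coloured by breed, and bars are means. The IMF arrays lie below all SC arrays for PNPLA2, G0S2, PLIN2, CIDEC and AQP7, and overlap those of LD pasture for PNPLA2, LIPE, MGLL, ABHD5, PLIN2 and AQP7.

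Among the lipases, PNPLA2 ranged from 3.28 to 4.87 in IMF with a median of 4.10, and from 4.95 to 5.59 in SC with a median of 5.34. The IMF and SC arrays did not overlap, and IMF was 2.34-fold lower (difference -1.23, SE 0.14, adjusted p = 4.69e-08, limma). In Inter PNPLA2 ranged from 4.19 to 5.43 (median 4.98), in Kid from 3.81 to 5.82 (median 5.32) and in Omen from 4.55 to 5.72 (median 4.95). In the order of the means, SC, Kid, Omen, Inter, IMF and LD, no step between neighbours from SC to Inter passed the threshold. The steps from Inter to IMF and from IMF to LD did. Compared directly with SC, PNPLA2 was lower in Inter (-0.41, adjusted p = 0.00583, limma) and in Omen (-0.32, adjusted p = 0.0311).

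LIPE ranged from -0.56 to 2.49 in IMF (median 0.97) and from 1.65 to 3.1 in SC (median 2.55). The IMF spread was the widest of the lipases, with an SD of 0.83 against 0.48 in SC, and the arrays of the depots overlapped. IMF was 2.64-fold lower than SC (difference -1.40, SE 0.26, adjusted p = 6.04e-05, limma), but not past the threshold within Wagyu x Angus alone (-0.95, adjusted p = 0.0738). Its second tested probe gave -1.43. The medians in Inter, Kid and Omen were 2.37, 2.40 and 2.01, and no step in the order SC, Inter, Kid and Omen passed the threshold.

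MGLL ranged from 2.62 to 4.46 in IMF (median 3.54) and from 4.44 to 5.45 in SC (median 4.99). A single IMF array, the highest, reached into the SC range, and IMF was 2.85-fold lower (difference -1.51, SE 0.15, adjusted p = 5.99e-09, limma). Its medians were 4.29 in Inter, 4.97 in Kid and 4.39 in Omen. In LD pasture the median was 3.52, and the difference of IMF from LD was not past the threshold (-0.04, SE 0.12, adjusted p = 0.739).

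Of the regulators of PNPLA2, its inhibitor G0S2 had the largest difference of the 9 genes by the brightest probes. It ranged from 3.38 to 5.85 in IMF (median 4.38) and from 6.05 to 7.18 in SC (median 6.77). No IMF array reached the lowest SC array, and IMF was 4.99-fold lower (difference -2.32, SE 0.23, adjusted p = 6.34e-09, limma), with -2.26 for its second probe. The medians of G0S2 in Inter, Kid and Omen were 6.38, 6.53 and 6.22, close to each other and under SC, from which Inter and Omen differed past the threshold. The second probe did so in Omen but not in Inter (-0.36, adjusted p = 0.062).

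ABHD5, the activator, was the 1 gene of the 9 for which SC did not have the highest mean. It ranged from -2.53 to -1.32 in IMF (median -1.88), from -1.73 to -0.98 in SC (median -1.21), from -1.21 to 0.39 in Inter (median -0.45), from -1.40 to 0.08 in Kid (median -0.43) and from -1.64 to -0.20 in Omen (median -1.10). The SC mean lay under those of Inter and Kid past the threshold, the step from Omen to SC did not pass (0.28, adjusted p = 0.154), and in LD pasture, at a median of -1.69, ABHD5 lay above IMF. IMF was 1.55-fold lower than SC (difference -0.63, SE 0.12, adjusted p = 9.73e-05, limma). This call was lost within Angus alone (-0.51, adjusted p = 0.0551). It was also lost in the unscaled series matrix values (-0.01, adjusted p = 0.967), where the median of all probes was 0.63. IMF was 2.72-fold lower than Inter (difference -1.44, SE 0.16, adjusted p = 1.02e-07).

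In the droplet coat, PLIN1 ranged from 1.75 to 4.71 in IMF (median 3.38) and from 4.50 to 5.17 in SC (median 4.92). The SD was 0.82 in IMF and 0.19 in SC, the ranges overlapped, and IMF was 2.51-fold lower (difference -1.33, SE 0.23, adjusted p = 2.75e-05, limma). The Inter, Kid and Omen medians of PLIN1 were 4.81, 4.86 and 4.55. No step among SC, Inter, Omen and Kid passed the threshold, while the step to IMF did.

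PLIN2 ranged from 0.55 to 2.39 in IMF (median 1.48) and from 2.94 to 4.45 in SC (median 3.94). The depots did not overlap, and IMF was 4.79-fold lower (difference -2.26, SE 0.21, adjusted p = 2.07e-09, limma). In Inter the lowest array was 2.83 and the median 3.19, and in Omen the lowest was 2.78 and the median 3.14. In Kid PLIN2 spread from 2.35 to 4.87 around a median of 3.02, the widest range of any depot for this gene.

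CIDEC ranged from 4.99 to 7.89 in IMF (median 6.97) and from 8.03 to 8.60 in SC (median 8.38). No IMF array reached the SC range, and the IMF mean was lower by 2.70-fold (difference -1.43, SE 0.22, adjusted p = 5.79e-06, limma), and the second CIDEC probe gave -1.88. Its medians of 7.79 in Inter, 7.92 in Kid and 7.90 in Omen lay close together, and by this probe it was the 1 gene of the 9 that was lower than SC past the threshold in all 4 other depots. The second probe did not pass in Inter (0.16), Kid (-0.26) or Omen (-0.05), so the probes of CIDEC disagree outside IMF.

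AQP7, the glycerol channel, ranged from 0.82 to 2.82 in IMF (median 1.92) and from 2.99 to 3.82 in SC (median 3.5). The depots were separate, and IMF was 2.90-fold lower (difference -1.54, SE 0.19, adjusted p = 1.45e-07, limma). The Inter, Kid and Omen medians were 3.33, 3.18 and 2.89, and no step between neighbours in the order SC, Inter, Kid and Omen passed the threshold. Omen compared directly with SC was lower (-0.55, adjusted p = 0.0019, limma), with -0.54 for the second probe (adjusted p = 0.00405).

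Within IMF a Hereford array had the lowest value for 8 of the 9 genes, all but ABHD5, which was -1.80 there, above its IMF median, and a Wagyu x Angus array had the highest for 8 of the 9, all but PLIN2. On the first array the mean log2 level over the 9 genes was 1.67, that over the 8 adipocyte markers 2.21 and that over 12 skeletal myofibre markers 7.35. On the second these were 3.79, 4.43 and 5.55.

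The markers of other cells moved with the IMF minus SC comparison as well. All 8 adipocyte markers with a probe (ADIPOQ, FABP4, PPARG, CEBPA, CFD, LEP, RBP4 and TRARG1) had lower levels in IMF (median difference -1.33), and their summed signal, relative to the 75th percentile, was 159 to 546 on IMF arrays and 532 to 823 on SC arrays. All 12 myofibre markers were higher in IMF, with a median of 10.6 and a summed signal of 1000 to 2920 against 1.44 to 2.57 in SC. In SC, MYH2 and TNNT1 were each well above background on 1 of 12 arrays, whereas ACTA1, MB, MYH7, TNNT3, CKM and ACTN3 were so on all 12. Of all probes, 31.2% were higher in IMF and past the threshold. All 7 macrophage markers were lower in IMF (median -1.83), as were 3 of 5 endothelial markers, and of 5 mesothelial markers 2 were higher and 1 lower. With each array centred on the 8 adipocyte markers in place of the 75th percentile, a scaling that gives levels per adipocyte marker signal, 3 of the 9 genes passed the threshold. The centring raises every gene on the IMF arrays relative to SC by about the same amount, and 31328 of 34227 probes passed under it, 30880 of them higher in IMF, with a median of 1.34 over all probes. G0S2 was lower in IMF (difference -0.98, SE 0.17, adjusted p = 4.72e-06, limma), as was PLIN2 (-0.92, SE 0.18, adjusted p = 4.22e-05), and ABHD5 lay at 0.71 (SE 0.22, adjusted p = 0.00356), under the median of all probes. The other 6 genes lay between -0.20 and 0.12.

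**Figure D2:**
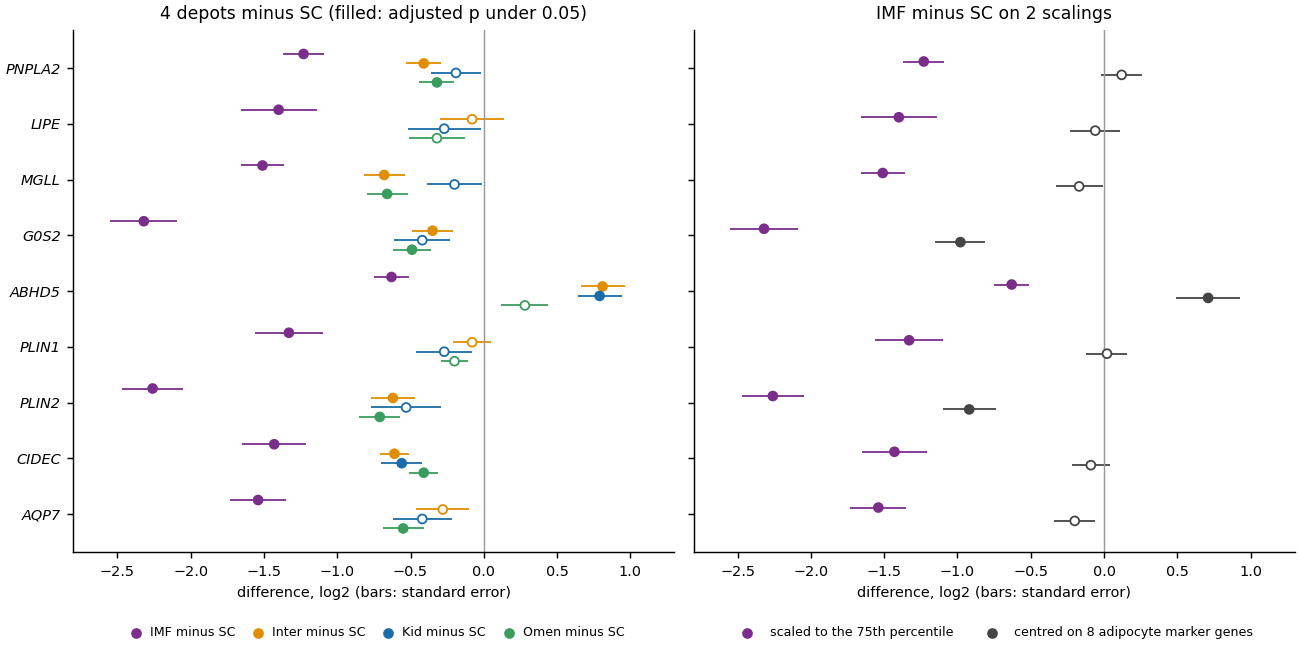
Differences from SC on the log2 scale for the 9 genes, with standard errors (12 arrays per depot) and filled points where the adjusted p was under 0.05. Left, the IMF points lie furthest below 0 for every gene, and ABHD5 is the gene with points above 0, in Inter, Kid and Omen. Right, IMF minus SC with arrays scaled to the 75th percentile and with arrays centred on 8 adipocyte markers, where G0S2 and PLIN2 stay below 0, ABHD5 is above 0 but under the median of all probes (1.34) and the other 6 genes lie between -0.20 and 0.12.

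The scan day of the arrays is nearly that of the depots here. When scan day was made a block for the 24 IMF and SC arrays, a fit that rests on the 1 SC array scanned with the IMF arrays, all 9 differences stayed negative (-2.30 to -0.82) and PLIN2 alone passed the threshold (adjusted p = 0.00477, limma), as did 6845 of 34224 probes. In a fit of all 96 arrays with the same block, in which every scan day has more than 1 tissue, all 9 passed, as did 17271 of 34227 probes. That fit has no breed term, and its scan day terms also draw on LD slides, which differ in adipocyte marker level. IMF and Omen share a scan day with 12 and 10 arrays, and on that day alone all 9 genes were lower in IMF than in Omen, by -1.88 to -0.93, and past the threshold, as were 10099 of 34227 probes.

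In Inter, Kid and Omen the genes other than ABHD5 lay nearer to SC than they did in IMF. ABHD5 lay further from SC in Inter (0.81) and Kid (0.79) than in IMF (-0.63). These 3 comparisons with SC share the SC arrays with each other and with IMF minus SC. In Inter 6 of the 9 genes passed the threshold, against 48.8% of all probes, with MGLL (-0.68), PLIN2 (-0.62), CIDEC (-0.61), PNPLA2 (-0.41) and G0S2 (-0.35) lower and ABHD5 higher (0.81, SE 0.15, adjusted p = 0.000124). All 12 Inter arrays were scanned on a day that has no SC array, so that within these 2 depots depot and scan day cannot be told apart, and with the block over all 96 arrays 5 of the 9 passed, against 13082 probes. Kid gave 2 of 9, against 41.7% of all probes, CIDEC lower (-0.56, SE 0.14, adjusted p = 0.00265) and ABHD5 higher (0.79, SE 0.15, adjusted p = 0.000141). Omen gave 6 of 9, against 45.7% of all probes, all 6 lower. These were PLIN2 (-0.71), MGLL (-0.66), AQP7 (-0.55), G0S2 (-0.49), CIDEC (-0.41) and PNPLA2 (-0.32). With scan day as a block in the Omen and SC arrays none of the 9 passed and G0S2 turned to 0.26, while 1510 of 34224 probes passed, against 15654 without the block. Over all 96 arrays the same block gave 7 genes and 10499 probes. LIPE and PLIN1 differed from SC past the threshold in none of these 3 depots, at -0.32 to -0.08 and -0.27 to -0.08. The other PLIN1 probe, which was not among those tested and was fitted with all 43653 probes, gave -0.37, -0.61 and -0.34 and passed in each.

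With quantile normalisation 3, 1 and 3 genes passed in Inter, Kid and Omen, against 16347, 14466 and 14676 of 34227 probes, and CIDEC in Omen changed sign to 0.03. In the deposited processed values, which are not scaled between arrays and in which the median of all probes was 0.82 to 0.98 above SC, every gene but ABHD5 changed sign in these 3 depots. The adipocyte markers differed less here than in IMF, with 3, 2 and 4 of 8 past the threshold and medians of -0.25, -0.21 and -0.30, and their part in these differences was not tested. The myofibre markers reached a summed signal of 828 on 1 Inter array and 18.2 on 1 Kid array, against at most 2.02 in Omen. Of 12 myofibre markers 5 were higher than SC in Inter, 5 higher and 1 lower in Kid, and 6 lower in Omen. In the same order 4, 2 and 1 of 5 endothelial, 3, 2 and 1 of 7 macrophage and 3, 3 and 4 of 5 mesothelial markers passed.

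Among Inter, Kid and Omen no difference of the 9 genes passed the threshold by limma. The counts were 0 of 9 for Inter minus Kid, where 15.4% of all probes passed and MGLL (-0.48) had an unadjusted p under 0.05, 0 of 9 for Inter minus Omen, where 13.6% passed and ABHD5 (0.53) had such a p, and 0 of 9 for Kid minus Omen, where 12.1% passed and MGLL (0.46) and ABHD5 (0.51) had such a p. Against these depots IMF was lower for all 9 genes in each case, by -1.97 to -0.82 from Inter, -1.90 to -0.87 from Kid and -1.83 to -0.85 from Omen, and past the threshold for all 9, as were 30.0%, 27.4% and 28.4% of all probes. In the series matrix values 17929, 12162 and 13236 of 34227 probes were lower past the threshold. The scan day block left 1 gene past the threshold in IMF minus Kid, ABHD5, against 1692 of 34225 probes, and IMF minus Inter, whose depots share no scan day, could not be fitted. Centred on adipocyte markers 4, 1 and 2 genes passed, against 30459, 29615 and 29993 of 34227 probes. In IMF minus Inter PNPLA2 (0.33), MGLL (0.32) and CIDEC (0.32) lay above 0 under this scaling, below a median of 1.18 over all probes there. These 3 comparisons and IMF minus SC share the 12 IMF arrays.

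The LD muscle gave the level of each gene where adipocytes are few. SC was higher than LD pasture and past the threshold for all 9 genes, against 40.2% of all probes, and for 8 of them, all but ABHD5, every SC array was above every LD array, against 19.7% of all probes. CIDEC (6.47), G0S2 (6.38), PLIN1 (6.22) and LIPE (3.96) were 88.9-fold, 83.1-fold, 74.4-fold and 15.6-fold higher in SC, whereas PLIN2 (2.73), AQP7 (1.94), PNPLA2 (1.77), MGLL (1.47) and ABHD5 (0.42) were 1.34-fold to 6.64-fold higher.

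IMF passed the threshold against LD for 7 of the 9 genes, against 75.3% of all probes, and 6 of the 7 were higher in IMF. CIDEC (5.04, SE 0.62), PLIN1 (4.89, SE 0.49) and G0S2 (4.06, SE 0.30) had the largest differences, and LIPE was 5.90-fold higher (2.56, SE 0.24, adjusted p = 4.35e-12, limma). PNPLA2 (0.54) and AQP7 (0.40) were higher by less, and the second AQP7 probe was not past the threshold (0.25, adjusted p = 0.171). ABHD5 was lower in IMF than in LD (-0.21, SE 0.09, adjusted p = 0.0309), and neither MGLL (-0.04) nor PLIN2 (0.47, adjusted p = 0.0995) passed. With slide as a random block the ABHD5 and AQP7 differences were not past the threshold (adjusted p = 0.125 and 0.116), and within the scan day that IMF shares with 8 LD arrays those of PNPLA2 and AQP7 were not (0.22 and 0.18). All 8 adipocyte, all 5 endothelial and 6 of 7 macrophage markers were higher in IMF than in LD. All 12 myofibre markers were lower, and of 5 mesothelial markers 1 was higher and 3 lower. The part of these markers in the IMF minus LD differences was not tested.

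In LD the post-weaning diet was compared with breed in the model. CIDEC ranged from -1.37 to 4.92 on pasture (median 2.33) and from -1.80 to 1.19 with supplement (median 0.15). PLIN1 ranged from -3.55 to 1.26 (median -1.16) and from -3.70 to -2.13 (median -3.0), and G0S2 from -0.98 to 2.31 (median 0.30) and from -1.11 to 0.43 (median -0.46). For each of the 3 the supplement median lay under the pasture median, and the arrays of the diets overlapped. All 3 genes were lower with supplement, CIDEC by 4.01-fold (difference -2.0, SE 0.54, adjusted p = 0.0148, limma), PLIN1 by 2.99-fold (-1.58, SE 0.40, adjusted p = 0.00914, with -1.02 and adjusted p = 0.169 for its untested probe) and G0S2 by 1.69-fold (-0.76, SE 0.22, adjusted p = 0.0214). They make 3 of 9 genes, against 5.60% of all probes lower past the threshold, and with slide as a random block none of the 9 passed (adjusted p from 0.43, limma). The other 6 genes lay between -0.26 and 0.20, among them MGLL at an unadjusted p of 0.0127 (adjusted p = 0.0835).

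The diet difference went with the slide on which an LD array lay. Each LD slide holds 1 diet, and the pasture arrays fell on 6 slides, which are numbered here. On slides 2 and 23, both Angus, and slide 20, Wagyu x Angus, CIDEC ranged from 2.24 to 4.92. On slides 13 and 14, which hold Hereford and Wagyu x Angus, and slide 24, Hereford, it ranged from -1.37 to 2.42. The latter range is close to that of the 3 supplement slides, and the Wagyu x Angus pasture arrays split by slide, with 3.34 to 4.70 on slide 20 and -1.10 to 0.96 on slides 13 and 14. PLIN1 split in the same way, at -1.25 to 1.26 on the former 3 slides and -3.55 to -1.07 on the latter 3. The adipocyte markers went with these values, with slide means of 1.02, 0.41 and 0.77 on slides 2, 23 and 20, of -1.16, -0.81 and -0.74 on slides 13, 14 and 24, and of -1.01, -0.98 and -0.85 on the supplement slides 1, 6 and 12. Their part in the diet difference was not tested, and kill, which the labels do not give, cannot be told apart from slide.

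With slide as a random block, where none of the 9 genes passed the threshold, 1 of 34227 probes did, against 3850 without the block. With scan day as a block none of the 9 did (CIDEC -1.25, adjusted p = 0.178), against 2306 probes. On scan day 1 alone, with 8 Hereford and Wagyu x Angus arrays of each diet, CIDEC differed by -0.03 and PLIN1 and G0S2 by 0.00, and no member passed against 3969 of 34227 probes. On scan day 2 alone the diets could be compared only within Angus, slide 1 (supplement) against slide 2 (pasture) with 4 arrays each, and the differences were -4.41, -3.65 and -1.68 and past the threshold, as were 2093 of 34227 probes.

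**Figure D3:**
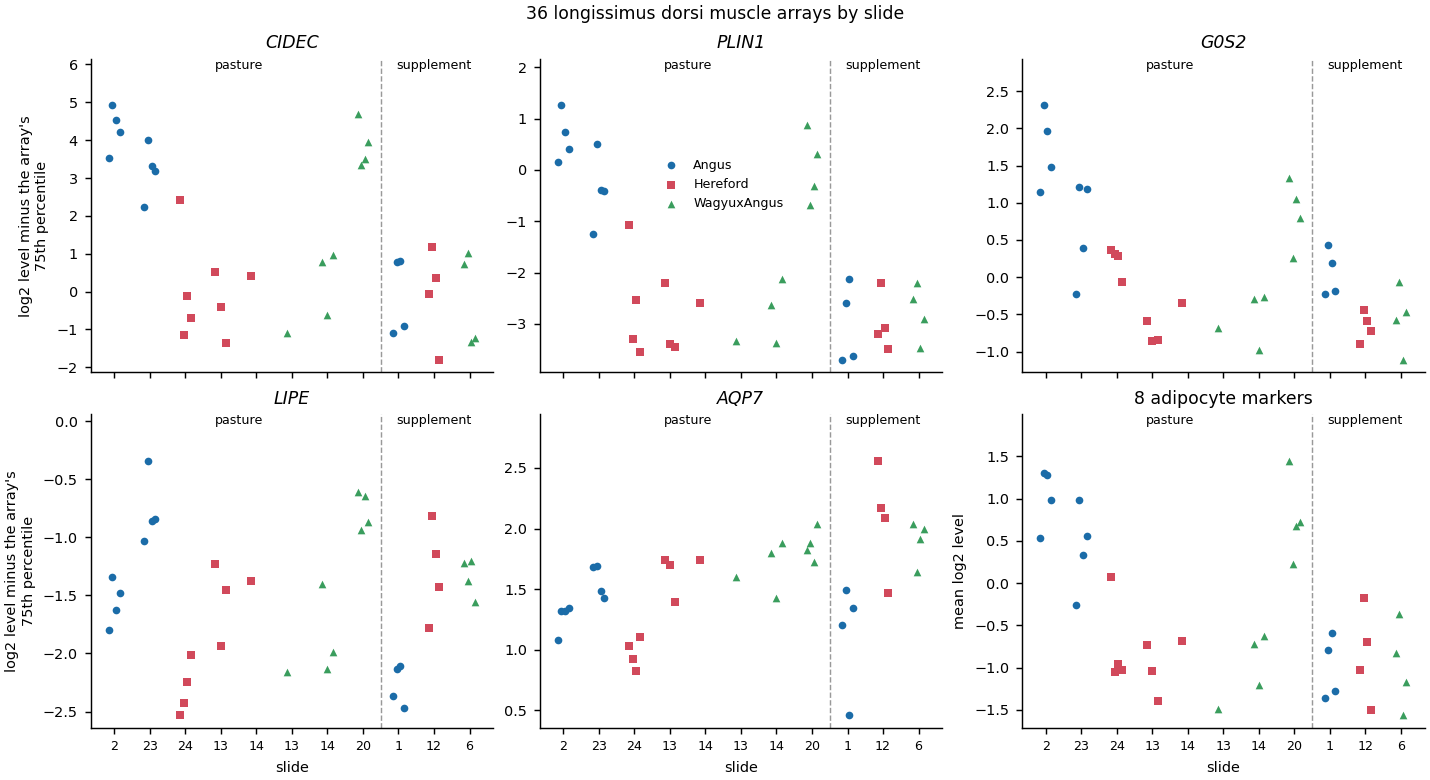
Levels of CIDEC, PLIN1, G0S2, LIPE and AQP7 and the mean of 8 adipocyte markers on the 36 LD arrays, by slide, with slides that hold arrays of 2 breeds shown once for each breed. Points are arrays, coloured by breed, and the dashed line parts pasture from supplement. CIDEC, PLIN1 and the adipocyte markers are high on slides 2, 23 and 20 and low on the other pasture slides and on the supplement slides.

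The diet difference in LD depended on breed for LIPE (adjusted p = 0.0124), AQP7 (adjusted p = 0.0181) and PLIN1 (adjusted p = 0.048) by the F test of limma, which are 3 of 9 genes against 16.2% of all probes. Leaving out each supplement array gave 1 to 5 genes, and the series matrix values gave 0 (adjusted p = 0.274, 0.307 and 0.267). The PLIN1 call was lost without 10 of the 12 supplement arrays and the AQP7 call without 2 of them, an Angus (adjusted p = 0.0543) and a Hereford array (adjusted p = 0.064). With slide as a random block none of the 9 genes and none of the 34227 probes passed (2132 had an unadjusted p under 0.05). With scan day as a block 3 genes passed, against 2970 probes, but these were PLIN1 (adjusted p = 0.0165), CIDEC (0.0389) and G0S2 (0.0399), and LIPE (0.0623) and AQP7 (0.282) did not. LIPE in Angus ranged from -1.80 to -0.34 on pasture (8 arrays) and was -2.47, -2.37, -2.13 and -2.11 with supplement, which is lower on all 4 arrays (difference -1.10, SE 0.29, adjusted p = 0.0175), and it differed by 0.61 in Hereford (adjusted p = 0.143) and 0.00 in Wagyu x Angus. On the scan day that both diets of a breed share, with 4 arrays of each diet, the LIPE means differed by -0.71 for Angus, by 0.58 for Wagyu x Angus and by 0.21 for Hereford. PLIN1 was lower with supplement in Angus (-3.14, SE 0.61, adjusted p = 0.00274) and differed by -0.24 in Hereford and -1.36 in Wagyu x Angus, neither past the threshold. On the shared scan day these PLIN1 differences were -0.09 for Hereford and 0.09 for Wagyu x Angus, against -3.65 for Angus. AQP7 in Hereford ranged from 0.82 to 1.74 on pasture and from 1.47 to 2.56 with supplement (0.77, SE 0.19, adjusted p = 0.00717), against -0.29 in Angus and 0.13 in Wagyu x Angus. On the shared scan day the AQP7 means differed by 0.43 in Hereford, -0.14 in Angus and 0.22 in Wagyu x Angus. CIDEC differed by -3.85 in Angus (SE 0.85, adjusted p = 0.00626), and its dependence on breed was not past the threshold for the brightest probe (adjusted p = 0.0633) but was for the second (adjusted p = 0.0109). Since each supplement slide holds 1 breed, breed and slide cannot be told apart among the supplement arrays.

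Between breeds the fat depots gave no difference past the threshold for any of the 9 genes. Over all 60 fat arrays, with depot in the model, 0 of 9 passed against 3.20% of all probes, with adjusted p from 0.164 to 0.859 (limma F test). PLIN2, CIDEC and AQP7 had an unadjusted p under 0.05 there, as did 5665 probes, and were all higher in Wagyu x Angus than in Hereford, by 0.45 (SE 0.15), 0.39 (SE 0.13) and 0.40 (SE 0.16). Breed by depot gave 0 of 9, with PLIN2 at an unadjusted p of 0.0246, and 0% of all probes, of which 2512 had an unadjusted p under 0.05. Within IMF 0 of 9 passed against 0.0555% of all probes, and PLIN2 (0.0051) and AQP7 (0.0476) had an unadjusted p under 0.05, as did 4774 probes. In IMF, PLIN2 ranged from 0.55 to 1.57 in Hereford, from 1.23 to 2.18 in Angus and from 1.77 to 2.39 in Wagyu x Angus. Wagyu x Angus lay above Hereford by 1.16 (SE 0.28), which was not past the threshold (adjusted p = 0.0761, limma).

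Within SC 0 of 9 passed and 0% of all probes did, of which 2660 had an unadjusted p under 0.05. PLIN2 had the lowest p there as well (unadjusted 0.000887, adjusted 0.553). It ranged from 2.94 to 3.79 in Hereford, from 3.89 to 4.01 in Angus and from 4.04 to 4.45 in Wagyu x Angus.

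In LD on pasture 4 of the 9 genes differed between breeds, against 14.7% of all probes. CIDEC (adjusted p = 0.00827), PLIN1 (0.00849) and G0S2 (0.0238) were lower in Hereford than in Angus by -3.79 (SE 0.73), -2.89 (SE 0.56) and -1.40 (SE 0.35), and AQP7 (0.0468) was higher in Wagyu x Angus than in Hereford by 0.46 (SE 0.14). CIDEC ranged from 2.24 to 4.92 in Angus, from -1.37 to 2.42 in Hereford and from -1.10 to 4.70 in Wagyu x Angus. Each breed lay on slides of its own except for slides 13 and 14, and with slide as a random block none of the 9 passed (adjusted p from 0.446 to 0.934, limma), nor did any of the 34227 probes, against 5044 without the block (3368 had an unadjusted p under 0.05 with it). When scan day was the block, CIDEC (adjusted p = 0.045) and PLIN1 (0.0452) passed and G0S2 (0.0704) and AQP7 (0.309) did not, against 3410 probes. The adipocyte markers moved with slide as given above. Between breeds 5 of 8 adipocyte, 3 of 5 endothelial and 1 of 5 mesothelial markers passed, and no macrophage or myofibre marker did. The part of these markers in the breed differences was not tested.

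The wider pathway was read from 4 lists. Of 16 other genes of droplet coat and assembly with a probe, 3 were higher and 11 lower in IMF than in SC (median -0.39), against 31.2% of all probes higher and 33.0% lower. The related CIDEA, which like CIDEC acts on droplet size, ranged from 0.33 to 2.80 in IMF and from 3.57 to 5.41 in SC and was 5.73-fold lower (difference -2.52, SE 0.24, adjusted p = 3.6e-09, limma). PLIN3, a widely expressed droplet coat protein, was lower by -1.14 and FITM2, a protein of droplet formation, by -1.24. FITM1, the muscle relative of FITM2, ranged from 1.15 to 3.02 in IMF, from -0.33 to 0.19 in SC and from 3.54 to 4.40 in LD pasture and was 4.65-fold higher in IMF (2.22, SE 0.19, adjusted p = 3.74e-10). PLIN5, the coat protein of oxidative tissue, was not past the threshold in IMF (0.18, SE 0.18, adjusted p = 0.389) and was lower than SC in Inter (-0.64), Kid (-0.59) and Omen (-0.83) and highest in LD, with a median of 3.28. The 6 other lipases of neutral lipid had 5 lower and 0 higher in IMF, against the same shares of all probes, among them the lysosomal lipase LIPA (-1.89, SE 0.22) and ABHD6, a monoacylglycerol hydrolase (-1.15, SE 0.19). Of 5 carriers of glycerol and fatty acids, a list that shares FABP4 with the adipocyte markers, 4 were lower in IMF and none higher, again against 33.0% and 31.2% of all probes.

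**Figure D4:**
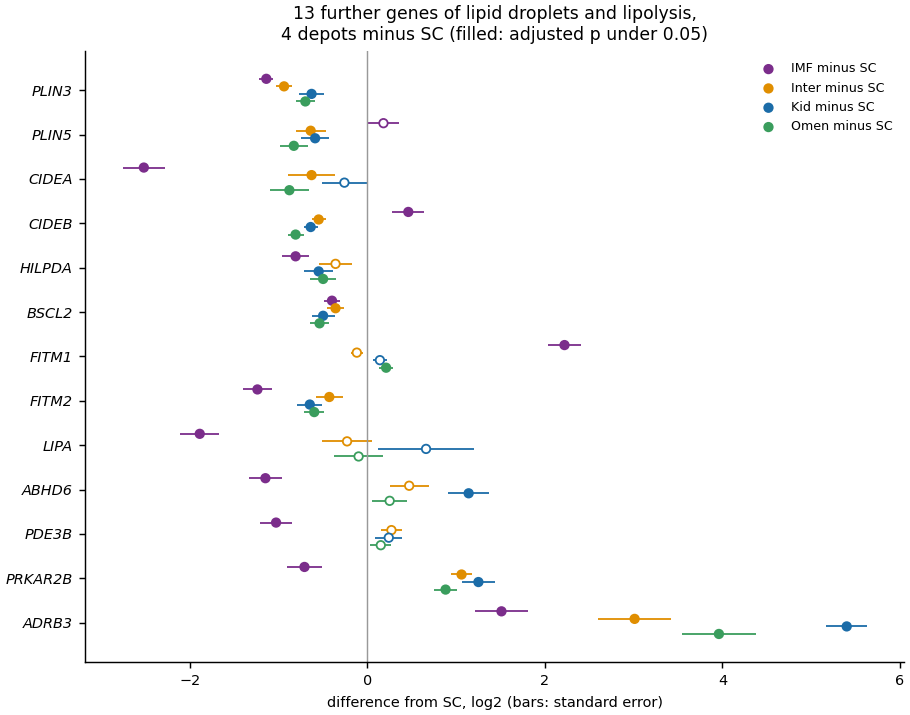
Differences from SC on the log2 scale of 13 other genes of the droplet coat, the lipases and the control of lipolysis in IMF, Inter, Kid and Omen, with standard errors (12 arrays per depot) and filled points where the adjusted p was under 0.05. ADRB3 is above 0 in all 4 depots, up to 5.40 in Kid, PRKAR2B is above 0 in Inter, Kid and Omen and below it in IMF, and FITM1 stands out in IMF.

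Of 24 genes of the hormonal control of lipolysis, 4 were higher and 14 lower in IMF than in SC (median -0.60), and Inter, Kid and Omen had 5, 3 and 5 higher and 9, 8 and 8 lower, with medians of 0.03, 0.03 and -0.03. Over all 34227 probes 7376, 6648 and 7023 were higher and 9322, 7615 and 8631 lower in these depots, and 10676 higher and 11281 lower in IMF. ADRB3, the beta-3 adrenergic receptor, ranged from -4.97 to -3.09 in SC, from -4.41 to -1.02 in IMF, from -3.61 to 0.90 in Inter, from -2.67 to 1.42 in Omen and from 0.17 to 2.16 in Kid, with every array well above background. The SC arrays lay where the LD arrays did (SC minus LD -0.01, SE 0.18), and Kid lay above SC (difference 5.40, SE 0.23, adjusted p = 7.64e-14, limma). PRKAR2B, a regulatory subunit of the cyclic AMP dependent kinase, was higher than SC in Inter (1.06), Kid (1.25) and Omen (0.88) and lower in IMF (-0.71), and PDE3B, the phosphodiesterase through which insulin restrains lipolysis, was lower in IMF (-1.03, SE 0.18) and past the threshold in none of the other 3 depots.

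For LD by diet, the lists gave 1 higher and 1 lower of 16 for the droplet coat, 0 and 1 of 6 for the lipases, 4 and 1 of 24 for hormonal control and none of 5 for the carriers, against 1933 higher and 1917 lower of 34227 probes. CIDEA (-0.43) and ABHD6 (-0.60) were lower with supplement (adjusted p = 0.0109 and 0.00912, limma) but not past the threshold with slide as a random block (adjusted p = 0.539 and 0.378), and PDE3B was well above background on 11 of 24 pasture and 3 of 12 supplement arrays. Beside them 4 of 8 adipocyte markers were lower, and all 5 endothelial and 3 of 12 myofibre markers higher. With slide as a random block no gene of these 4 lists or of the adipocyte, endothelial and myofibre markers passed.

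The genes whose pattern was most like that of a member were sought by Pearson correlation over the 15 breed by depot means of the fat arrays, which share animals and the IMF arrays with their muscle signal. For PLIN1 the nearest was TRARG1 (r = 0.986), which is also the nearest to CIDEC (0.968) and is 1 of the adipocyte markers. LIPE was nearest to PLIN1 itself (0.977), PNPLA2 to ADIPOR2 (0.981), AQP7 to PGRMC2 (0.98), PLIN2 to ANXA5 (0.981), G0S2 to MYO5B (0.976), MGLL to UROC1 (0.975) and ABHD5 to PHTF1 (0.969). Among the 9 genes r ran from 0.456, for ABHD5 with CIDEC, to 0.977, and no pair without ABHD5 was under 0.83. ABHD5 stood apart from the others, at 0.456 to 0.741.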

How the data were processed

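The authors hybridised 96 samples to 1 colour arrays designed on a bovine assembly, and the deposited scanner files, made with Feature Extraction 10.7.3.1, hold each spot's processed intensity after background subtraction. The file headers also give deposited 0 or 1 marks (unit other) for outlier spots and for signals well above background. The deposited series matrix holds log2 values, which matched log2 of the median signal minus background with a floor of 1, within 0.0001, and which were not scaled between arrays. The normalisation by mixed models that the methods name was not rerun.

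Control probes and outlier spots were left out and spots of a probe averaged. The 75th percentile of each array over 43653 probes was subtracted after log2. The number of arrays limits the precision. Of these probes 34227 were tested with limma 3.58.1 (R 4.3.3, statmod 1.5.0, and version 1.17.8 of data.table), with Benjamini-Hochberg adjustment over all of them and a threshold of 0.05. Tables and figures were made with Python 3.11.15, numpy 2.4.6, pandas 2.3.3 and matplotlib 3.10.9. Depots were compared in pairs, LD by diet with breed as a covariate, and breeds by F tests.

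Probes were named by RefSeq accession (19903 probes) or by the paper's tables (4466 probes). Both sources named 2917 probes, of which 2761 had the same name in both, and 21452 probes named 10658 genes. Where a gene had several probes, the one with the highest mean over all arrays was used. The text names the 9 members, 13 further genes fixed by name, and for likeness the genes nearest to each member. One further gene fixed by name is not reported here. The members, the 4 pathway lists and the 5 marker lists (adipocytes, skeletal myofibres, endothelium, macrophages and mesothelium) were chosen with earlier results of these data known.

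No pair of arrays held identical values, and r within groups was 0.828 to 0.992. Nothing in the labels says which samples share an animal, so the p-values measure the spread between these samples. The replicate numbers are positions on slides. The correlation of deviations of samples with the same number was -0.144 to 0.192, so the numbers were not taken to pair samples. In data simulated for these comparisons, a log2 change of 1 was called for 173 of 200 probes in IMF minus SC, 180 in LD by diet, 187 for breeds in fat, 50 for breeds in IMF and 80 for diet by breed. The simulated noise was independent between arrays, with no slide or scan day effect. These counts therefore do not hold for data with slide differences such as those of LD. Alternatives were other background corrections, scalings, filters and tests, slide and scan day as blocks, single breeds and leaving out single arrays. Centring on adipocyte markers and the fits within scan days belong to these alternatives.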

Additional observations from a re-analysis of the deposited data

Results flagged for a closer look

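For each gene, the highest and the lowest array of every breed by tissue group of 4 to 10 arrays were compared with the rest of the group. Of 189 pairs of a gene and a group, 8 held an array far from the others, where chance gives about 1 in 20. In IMF, MGLL was 4.46 on a Wagyu x Angus array against 3.54 to 3.69 on the other 3, and this array had the highest IMF level for 8 of the 9 genes. PLIN2 in IMF was 2.18 on an Angus array against 1.23 to 1.32 and 1.77 on a Wagyu x Angus array against 2.32 to 2.39. In Kid, PNPLA2 was 5.02 on a Wagyu x Angus array against 5.37 to 5.43, and MGLL was 3.79 on an Angus array against 4.93 to 5.10. In Omen, PLIN2 was 3.05 on an Angus array against 3.25 to 3.27, an array with 5528 outlier spots, and 2.82 on a Hereford array against 2.96 to 2.98. MGLL in LD was 2.88 on a Hereford supplement array against 3.44 to 3.52.

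The diet difference in LD differed between breeds by the F test of limma for LIPE (adjusted p = 0.0124), AQP7 (adjusted p = 0.0181) and PLIN1 (adjusted p = 0.048). In the order Angus, Hereford and Wagyu x Angus, LIPE differed by -1.10, 0.61 and 0.00, AQP7 by -0.29, 0.77 and 0.13, and PLIN1 by -3.14, -0.24 and -1.36. Each supplement slide holds 1 breed, so that breed and slide cannot be told apart there. The PLIN1 call was lost without 10 of the 12 supplement arrays, and the series matrix values and slide as a random block gave 0 genes. With scan day as a block LIPE (adjusted p = 0.0623) and AQP7 (adjusted p = 0.282) did not pass.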

How the results depend on the processing

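Over all alternatives 95 values changed direction, 156 lost the threshold, 24 passed it newly and 2389 kept direction and side. The cause of the changes below was not tested.

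Against SC the median of all probes moved to -0.23 (IMF), -0.28 (Inter), -0.25 (Kid) and -0.26 (Omen) with normexp and to 0.63, 0.98, 0.83 and 0.82 in the series matrix values. The split of higher and lower probes in IMF was 10676 and 11281, and became 6175 and 17210 with normexp and 21723 and 1889 in the matrix. For Inter it was 7376 and 9322, and became 4487 and 18858, and 30925 and 129. For Kid it was 6648 and 7615, and became 4317 and 17114, and 26216 and 427. For Omen it was 7023 and 8631, and became 3648 and 18619, and 28729 and 285. In IMF minus LD it was 12312 and 13457, and became 7294 and 19521 with normexp and 21670 and 3509 in the matrix. In the matrix it was 4519 and 17929 in IMF minus Inter, 5144 and 12162 in IMF minus Kid and 5156 and 13236 in IMF minus Omen, against 11213 and 10261, 9720 and 9395, and 9517 and 9734. For LD by diet it was 1933 and 1917, and became 631 and 498 with normexp and 321 and 5602 in the matrix.

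In the series matrix values the differences from SC, in the order PNPLA2, LIPE, MGLL, G0S2, PLIN1, PLIN2, CIDEC and AQP7, were 0.61, 0.89, 0.30, 0.67, 0.91, 0.39, 0.41 and 0.69 in Inter, 0.74, 0.63, 0.70, 0.51, 0.64, 0.40, 0.36 and 0.46 in Kid, and 0.52, 0.55, 0.19, 0.28, 0.62, 0.11, 0.41 and 0.26 in Omen. There IMF minus LD was 0.64 for MGLL and 0.46 for ABHD5, LD by diet -0.29 for ABHD5 and -0.10 for AQP7, and 8 genes passed in Kid minus SC, 1 in Inter minus Omen and 0 for diet by breed, beside 26643, 6743 and 850 of 34227 probes. With quantile normalisation LIPE (0.04) and PLIN1 (0.16) changed sign in Inter, PLIN1 (0.03) and CIDEC (0.03) in Omen, MGLL (0.42) in IMF minus LD and ABHD5 (-0.01) in LD by diet, and 3, 1 and 3 genes passed in Inter, Kid and Omen against SC. With arrays centred on their mean LIPE and PLIN1 in Inter were 0.04 and 0.04, and 1 gene passed in Inter minus Omen, beside 3957 probes. With normexp MGLL in IMF minus LD was 0.03 and ABHD5 in LD by diet was 0.00 (negative before rounding).

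Centred on adipocyte markers, 3 genes passed in IMF minus SC, 4 in IMF minus Inter, 1 in IMF minus Kid and 2 in IMF minus Omen, beside 31328, 30459, 29615 and 29993 of 34227 probes, of which 30880, 30028, 29224 and 29493 were higher in IMF. PNPLA2 (0.12), ABHD5 (0.71) and PLIN1 (0.02) changed sign in IMF minus SC, LIPE (0.11) and PLIN1 (0.11) in Inter minus SC, and PLIN1 (0.03) in Omen minus SC. In IMF minus Inter PNPLA2 was 0.33, MGLL 0.32 and CIDEC 0.32. In IMF minus Kid PNPLA2 was 0.15, LIPE 0.05, PLIN1 0.13, CIDEC 0.31 and AQP7 0.07. In IMF minus Omen PNPLA2 was 0.20, LIPE 0.03, MGLL 0.26, ABHD5 0.20, CIDEC 0.08 and AQP7 0.12. Against LD, IMF was -3.08 for PNPLA2, -1.06 for LIPE, -3.15 for PLIN2 and -3.22 for AQP7, and SC was -3.20 for PNPLA2, -1.0 for LIPE, -3.50 for MGLL, -4.55 for ABHD5, -2.24 for PLIN2 and -3.03 for AQP7.

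With scan day as a block in the arrays of the pair, 1 gene passed in IMF minus SC, 1 in IMF minus Kid and 0 in Omen minus SC, where PNPLA2 was 0.01 and G0S2 0.26. Over all probes 6845, 1692 and 1510 passed, against 21957, 19115 and 15654 without the block, and PLIN2 in IMF minus LD was -0.18, as on the shared scan day alone (-0.18). Inter minus SC and IMF minus Inter could not be fitted in this way. With the block over all 96 arrays LIPE (0.20) and AQP7 (0.09) changed sign in Inter minus SC, and 3 genes passed in Inter minus Omen and 2 in Kid minus Omen, beside 7171 and 7505 probes against 4642 and 4150 without the block. In LD by diet the scan day block gave 0 genes, with PNPLA2 at 0.00, LIPE at 0.07 and PLIN2 at 0.41. Scan day 1 alone gave 0 genes, with LIPE at 0.39, G0S2 at 0.00, PLIN1 at 0.00 and PLIN2 at 0.83, and scan day 2 alone gave ABHD5 at -0.16 and AQP7 at -0.14. Slide as a random block gave 0 genes for diet, 0 for diet by breed and 0 for breeds in LD, and scan day as a block 2 for breeds in LD. For diet by breed both blocks, and for breeds in LD the scan day block, were chosen after seeing the data.

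Within single breeds, Angus, Hereford and Wagyu x Angus gave 2, 3 and 1 genes in Inter minus SC, 0, 0 and 1 in Kid minus SC and 1, 1 and 3 in Omen minus SC, and Hereford and Wagyu x Angus 0 and 0 in LD by diet. Over all probes these were 2746, 6533 and 4358, 4464, 1228 and 5104, 1433, 4415 and 8327, and 2283 and 1190. In IMF minus SC 8, 9 and 8 genes passed, beside 14235, 13329 and 11385 of 34227 probes. LIPE in Wagyu x Angus (-0.95) and ABHD5 in Angus (-0.51) were lost. LIPE in Inter (0.01) and PLIN2 in Kid (0.35) changed sign in Hereford, and MGLL in Kid (0.13) and ABHD5 in Omen (-0.20) in Wagyu x Angus. In LD by diet LIPE was 0.61 and PLIN2 1.3 in Hereford, LIPE 0.00 and ABHD5 -0.02 in Wagyu x Angus, and ABHD5 -0.10 and AQP7 -0.29 in Angus. MGLL in IMF minus LD was 0.04 with all 36 LD arrays and 0.21 with the 12 supplement arrays.

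The methods' t-test, unadjusted at the same threshold, gave 4 genes in Kid minus SC, 1 in Inter minus Kid, 1 in Inter minus Omen and 2 in Kid minus Omen, beside 16938, 10697, 9875 and 9656 probes. With the spread taken from the 60 fat arrays, 1 gene passed in each of Inter minus Kid, Inter minus Omen and Kid minus Omen, beside 7123, 4524 and 6488 probes. Leaving out each supplement array in turn gave 1 to 5 genes for diet by breed, and the pasture arrays were not left out. There was 1 gene without an Angus (slide 1, replicate 3) or a Hereford supplement array (slide 12, replicate 1). There were 5 without another Hereford array of slide 12 (replicate 4). Leaving out each array in turn gave 0 to 0 for breeds in IMF and in SC.

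With the replicate number as a block 1 gene passed in Inter minus Omen, 3 in Kid minus SC, 2 for diet by breed and 3 for breeds in LD, beside 4108, 14512, 5480 and 4192 probes, and the counts of the other comparisons did not change. The numbers mark only positions on slides.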
